A study of Homo sapiens with 10 samples.

Results

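The 8 genes SH3TC1, SORCS2, SSX1, TTLL10, LRRC15, C1orf127, FRMD7 and GOLGA6A were chosen by name because their RNA levels differed widely between Kasumi-1 cells given E2-2, E2A or HEB. They are 8 of the 50868 genes in the deposited table. Kasumi-1 is a human myeloid leukemia line with the t(8;21) translocation, which makes the fusion protein AML1-ETO. Cells were infected with a retrovirus carrying HA-tagged E2-2, E2A or HEB, and control cells with the MIGR1 vector alone. GFP-positive cells were sorted and their RNA taken 4 days after infection, with 1 RNA library for each of the groups E2-2, E2A, HEB and vector. All of these cells thus carry the translocation, were infected and sorted, and keep their own E protein genes. The choice rested on the E protein libraries themselves, so the differences between them are given as a description. No threshold for the choice is stated.

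E proteins are basic helix-loop-helix transcription factors that pair up and bind the E-box, CANNTG. TCF4 makes E2-2, TCF3 makes E2A and TCF12 makes HEB. The factors have closely related DNA-binding regions and share many binding sites, and ID proteins block them by pairing with them. In t(8;21) leukemia, E proteins also belong to the protein complex that holds AML1-ETO.

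The libraries held 14816708 (E2-2) to 17673090 (E2A) counted reads. CPM below are counts per 1000000 reads after TMM scaling, and 3 reads, the floor used for a count of 0, correspond to 0.170 to 0.198 CPM. The factor genes matched their labels. TCF4 had 12484 reads in E2-2, against 4 in E2A, 1 in HEB and 4 in vector. TCF3 had 23186 reads in E2A and 3039 to 4201 in the other libraries, and TCF12 had 13842 in HEB and 2206 to 2971 in the others. The 9 myeloblast markers checked, MPO, KIT, CD34 and RUNX1T1 among them, had reads in every library. By the rule given below, CD33 was called higher over vector in each E protein library, and SPI1 in E2-2. That is 2 of 9 in E2-2 (22.2%, beside 8.45% of all genes tested). It is 1 of 9 (11.1%) in E2A and in HEB, beside 4.89% and 2.55% of all genes. None of the 9 was called lower. Each group is a single library, so no p-value is given and no replicate stands behind a fold. Values in parentheses are exact 95% intervals for counting error alone, and variation between cultures is not in them. A gene is called when its fold is at least 2, the interval excludes 1 and the 2 libraries hold at least 30 of its reads. In RNA from a whole sorted culture, more cells expressing a gene and more RNA per cell cannot be told apart.

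The genes fell into 3 patterns. SORCS2, LRRC15, TTLL10 and SSX1 were highest in E2A. FRMD7, GOLGA6A and C1orf127 were highest in E2-2. SH3TC1 was high in both E2-2 and E2A and low in HEB. None of the 8 was highest in HEB or in vector.

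Calls of the 8 genes are given beside the share called over all genes tested. In E2-2 over vector, 4 of the 8 genes were called higher (8.45% of all 13884 genes tested) and 0 lower (3.55%). In E2A over vector, 5 were called higher (4.89% of 13901) and 0 lower (1.58%). In HEB over vector, C1orf127 was called higher (2.55% of 13695) and SH3TC1 lower (1.23%). These comparisons share the vector library.

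In E2-2 over E2A, 3 genes were called higher (3.63% of 14066) and 4 lower (1.61%). In E2-2 over HEB, 4 were called higher (6.09% of 13891) and 0 lower (1.57%). In E2A over HEB, 5 were called higher (2.38% of 13944) and C1orf127 lower (0.696%). The genes were picked from these very contrasts, so nothing is read from their counts. Between 2 and 8 of the 8 genes had a fold and 30 reads in a comparison, and the others had fewer than 30 reads there in the 2 libraries together.

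Under these limits C1orf127 was called in all 3 pairs of E proteins, and each of the other genes set 1 E protein apart from the other two. That count depends on the limits. C1orf127 loses its call in E2A over HEB (3.97-fold, 33 reads) with a minimum of 100 reads or a fold of at least 4. SSX1 in E2-2 over HEB was 11.5-fold (2.80 to 101) and GOLGA6A in E2A over HEB 9.37-fold (2.28 to 82.6). TTLL10 in E2-2 over HEB was at least 2.75-fold lower, at 0 against 9 reads. All of these intervals exclude 1, and only the minimum of 30 reads kept these genes from a call there. With its near-identical relatives summed, SSX1 was called in all 3 pairs too. For SH3TC1 that was HEB, since E2-2 over E2A, at 1.37-fold (1.20 to 1.57), is not called.

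**Figure D1:**
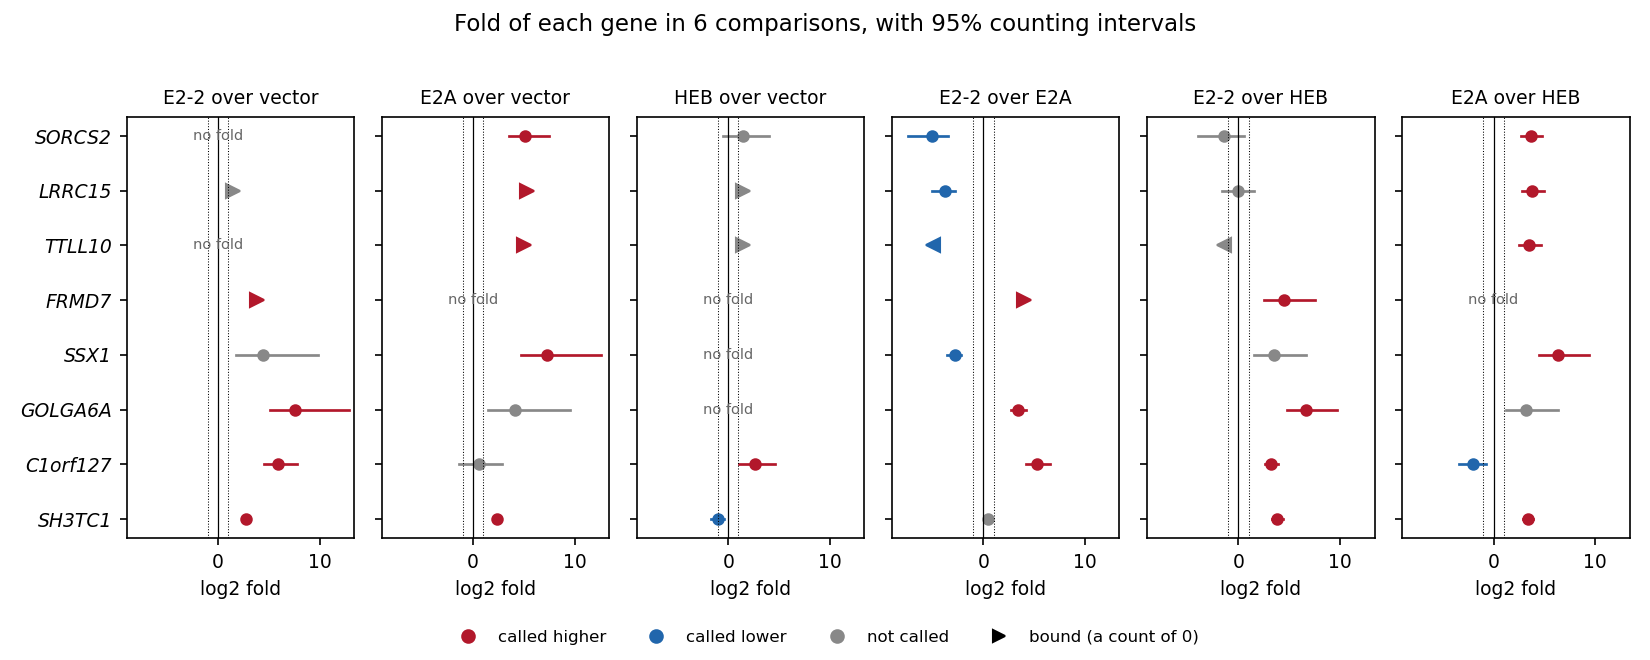
Log2 fold of each of the 8 genes in the 6 comparisons, the first-named library over the second, with 95% exact counting intervals. Red marks calls higher, blue calls lower, grey no call, and triangles are bounds where 1 library had 0 reads. In E2-2 over E2A, SORCS2, LRRC15, TTLL10 and SSX1 lie left of 0, and FRMD7, GOLGA6A and C1orf127 lie right of it.

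Sequences upstream of the transcription start are shown for a gene of each pattern and for LRRC15, which has no E-box there. They are the 250 bases before the RefSeq start in GRCh38.p14, written 5′ to 3′ on the gene's strand, with every CANNTG in capitals. The windows are chr4:8181822-8182071 (plus strand) for SH3TC1, chr1:1173630-1173879 (plus) for TTLL10, chr3:194369744-194369993 (minus) for LRRC15 and chr1:10982077-10982326 (minus) for C1orf127.
SH3TC1: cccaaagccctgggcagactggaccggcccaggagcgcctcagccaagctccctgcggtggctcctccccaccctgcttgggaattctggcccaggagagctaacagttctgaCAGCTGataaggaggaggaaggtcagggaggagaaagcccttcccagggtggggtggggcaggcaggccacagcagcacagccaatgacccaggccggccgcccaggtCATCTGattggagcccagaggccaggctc
TTLL10: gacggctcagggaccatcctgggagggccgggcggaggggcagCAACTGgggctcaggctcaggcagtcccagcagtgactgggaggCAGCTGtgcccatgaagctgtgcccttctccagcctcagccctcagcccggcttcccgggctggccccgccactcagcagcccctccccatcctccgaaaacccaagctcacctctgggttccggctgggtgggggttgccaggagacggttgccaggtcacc
LRRC15: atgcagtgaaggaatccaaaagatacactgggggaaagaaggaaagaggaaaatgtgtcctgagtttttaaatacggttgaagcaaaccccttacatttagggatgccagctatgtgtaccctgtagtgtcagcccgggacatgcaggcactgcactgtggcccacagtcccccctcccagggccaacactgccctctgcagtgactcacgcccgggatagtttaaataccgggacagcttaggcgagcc
C1orf127: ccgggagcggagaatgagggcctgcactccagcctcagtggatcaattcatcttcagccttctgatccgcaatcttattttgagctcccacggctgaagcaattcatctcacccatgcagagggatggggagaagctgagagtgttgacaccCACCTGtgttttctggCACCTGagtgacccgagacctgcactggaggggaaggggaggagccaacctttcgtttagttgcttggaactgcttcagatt

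Positions are counted from -1, the last base before the start, and give the first base of a match. CANNTG and CAGCTG read the same on both strands, and CAGGTG reads as CACCTG on the other strand. SH3TC1 has CAGCTG at -137 and CATCTG at -29. TTLL10 has CAACTG at -207 and CAGCTG at -163. C1orf127 has CACCTG at -98 and again at -82. RefSeq windows were found for 7 of the 8 genes, 9 windows in all. CANNTG was in 7 of the 9, against 61.8% of 35116 windows of the same length over all genes. CAGCTG, which is one form of CANNTG, was in 3 of the 9, both TTLL10 windows and the first SH3TC1 window, against 14.0% of all windows. CAGGTG or CACCTG was in 1 of the 9, that of C1orf127, against 17.5% of all windows. A match is a string of letters and not a measured binding site, and the HA ChIP-seq libraries were not analysed here.

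**Figure D2:**
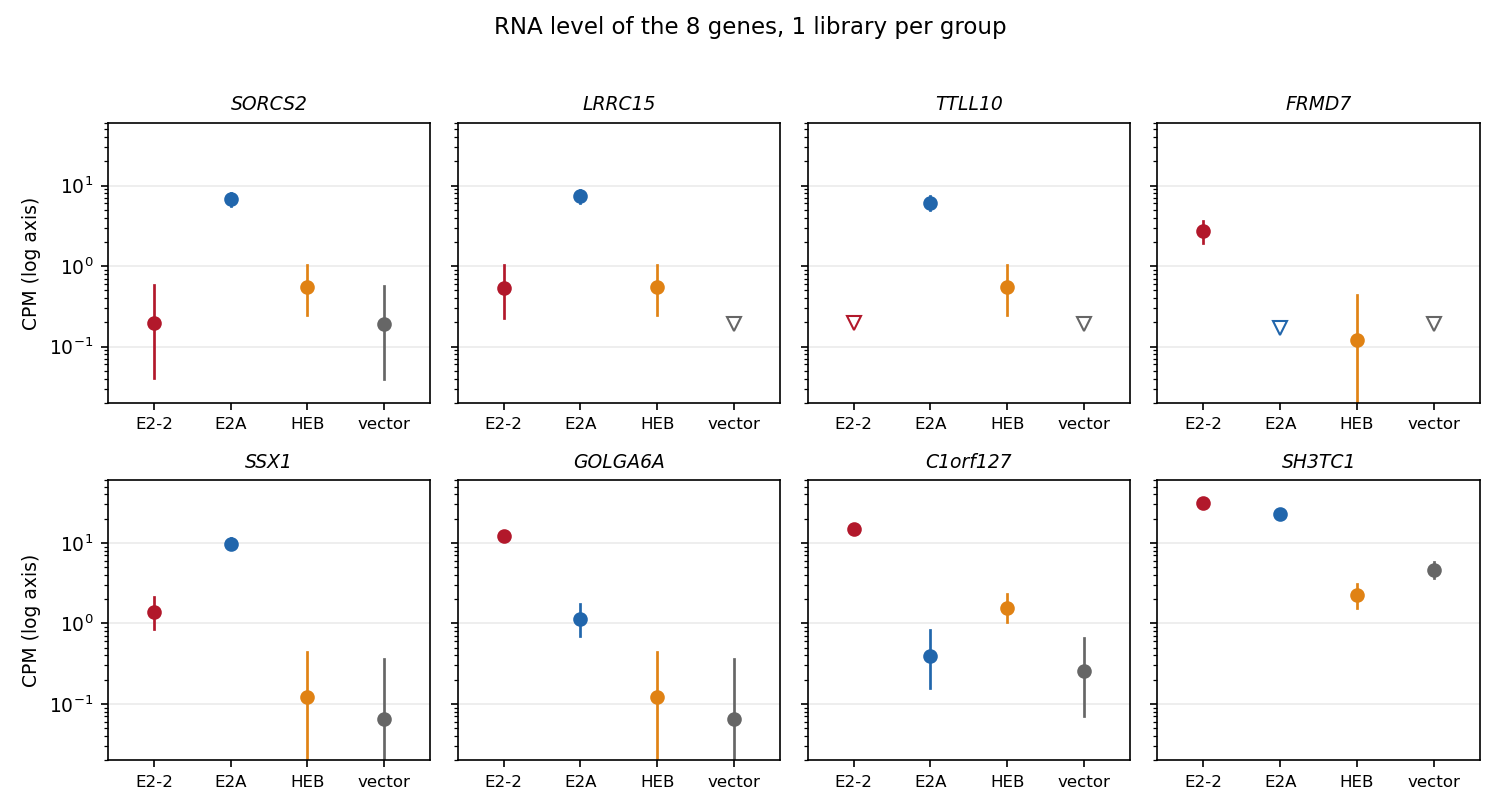
Points give the RNA level of each of the 8 genes in a library, in CPM on a log axis, in the order E2-2, E2A, HEB and vector. Lines are 95% exact Poisson intervals and continue below the axis where they reach it, and open triangles mark a count of 0 drawn at 3 reads. SORCS2, LRRC15, TTLL10 and SSX1 peak in E2A at 6.11 to 9.79 CPM, FRMD7, GOLGA6A and C1orf127 peak in E2-2, and SH3TC1 stands at 31.6 CPM in E2-2 and 23.0 in E2A.

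Membrane receptors were compared first. SORCS2 (ENSG00000184985, chromosome 4, 7192538 to 7742836) codes for a sorting receptor with a VPS10 domain, known from neurons, where it binds precursors of the neurotrophins. It had 3 reads in E2-2, 120 in E2A, 9 in HEB and 3 in vector. The E2A library stood apart, at 6.79 CPM (5.63 to 8.12), and the intervals of the other libraries overlapped. SORCS2 was higher in E2A than in vector by 35.3-fold (11.8 to 174). It was lower in E2-2 than in E2A, by 34.3-fold (11.5 to 169), and 12.5-fold (6.36 to 28) higher in E2A than in HEB. HEB and vector, at 9 and 3 reads, did not differ beyond counting error (2.83-fold, 0.706 to 16.2).

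No other VPS10 receptor gene was called beside it. SORL1 and SORT1 were the ones with enough reads, and neither was called in any of the 6 comparisons. SORL1 was at 310 CPM in E2-2, 460 in E2A, 310 in HEB and 405 in vector. SORT1 was at 153 CPM in E2-2, 160 in E2A, 144 in HEB and 149 in vector. SORCS1 and SORCS3 had at most 1 read in any library. None of the 8 neurotrophin and neurotrophin receptor genes listed reached 30 reads in a comparison. NGFR, which codes for the p75 receptor that pairs with SORCS2 in neurons, had 7 reads in E2-2, 10 in E2A, 4 in HEB and 3 in vector.

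LRRC15 (ENSG00000172061, chromosome 3, 194355247 to 194369743) codes for a surface protein with leucine-rich repeats, best known from fibroblasts of tumour stroma. It had 8 reads in E2-2, 130 in E2A, 9 in HEB and 0 in vector. E2A alone was high, at 7.36 CPM (6.15 to 8.74), while the intervals of E2-2 and HEB lay on top of each other at 0.528 and 0.544 CPM. LRRC15 was at least 38.3-fold higher in E2A than in vector, 13.9-fold (6.87 to 33.0) lower in E2-2 than in E2A and 13.5-fold (6.91 to 30.2) higher in E2A than in HEB. E2-2 and HEB did not differ beyond counting error (0.970-fold, 0.326 to 2.83). Against 0 reads in vector, the 8 reads in E2-2 and 9 in HEB were too few for a call, though both intervals exclude 1.

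Since LRRC15 marks fibroblasts, markers of fibroblasts or packaging cells were read beside it. The 15 markers summed to 10.9 CPM in E2-2, 10.9 in E2A, 11 in HEB and 10.0 in vector. FN1, TAGLN and ACTA2, which many cells express, held most of these reads. Only 3 of the 15 had enough reads in each comparison, and none of those was called. In the E2A library, PDGFRA had 17 reads (9 in E2-2, 7 in HEB and 12 in vector), PDGFRB 5, COL6A3 5, COL1A1 3, COL5A1 3 and POSTN 3. COL1A2, COL3A1, DCN and FAP had 1 read each there, and LUM and THY1 had 0. The part of such cells in the LRRC15 level was not tested. Of 7 other leucine-rich repeat surface genes, 2 had enough reads in E2A over vector and 3 in E2-2 over vector. LRRC32 was 2.04-fold (1.11 to 3.93) higher in E2A than in vector, with 37 reads against 16. It was the 1 called higher of the 2, beside 4.89% of all genes. GP9, a platelet glycoprotein gene, peaked in E2-2 instead, with 55 reads in E2-2, 13 in E2A, 6 in HEB and 1 in vector, and was higher in E2-2 than in vector by 56.6-fold (9.74 to 2275). GP9 was the 1 called higher of the 3 there, beside 8.45% of all genes.

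Next came genes of the cytoskeleton. TTLL10 (ENSG00000162571, chromosome 1, 1173884 to 1197935) belongs to the tubulin tyrosine ligase-like family, whose members attach amino acid chains to tubulin, glycine in the case of TTLL10 of mice. It had 0 reads in E2-2, 108 in E2A, 9 in HEB and 0 in vector. E2A again stood alone, at 6.11 CPM (5.01 to 7.38), HEB held a few reads, and E2-2 and vector held none, which allows up to 3 reads in each. TTLL10 was at least 31.8-fold higher in E2A than in vector, at least 30.9-fold lower in E2-2 than in E2A and 11.2-fold (5.71 to 25.2) higher in E2A than in HEB. The 9 reads in HEB against 0 in vector were too few for a call, though the interval excludes 1.

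Of the other 13 genes of that family in the table, 8 had enough reads in each comparison. Over vector, TTLL7 was higher in E2-2 by 2.55-fold (1.61 to 4.15) and in E2A by 2.19-fold (1.38 to 3.56), and TTLL1 was lower in E2-2 than in vector by 2.04-fold (1.49 to 2.83). No other member of the family was called in any of the 6 comparisons. In E2-2 over vector this is 1 of 8 higher and 1 of 8 lower (12.5% each), beside 8.45% and 3.55% of all genes. In E2A over vector it is 1 of 8 higher (12.5%, beside 4.89% of all genes). TTLL7 and TTLL1 had reads in all libraries, with 27 and 126 in vector. The family median log2 fold in E2A over vector was -0.02, beside -0.01 for all genes tested.

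FRMD7 (ENSG00000165694, chromosome X, 132076993 to 132128020) codes for a FERM-domain protein that links membrane and actin in growing neurites, and its mutation causes an X-linked form of nystagmus. It had 41 reads in E2-2, 0 in E2A, 2 in HEB and 0 in vector. E2-2 was the one library above the floor, at 2.70 CPM (1.94 to 3.67). FRMD7 was at least 14.1-fold higher in E2-2 than in vector, at least 15.9-fold higher in E2-2 than in E2A and 22.4-fold (5.81 to 191) higher in E2-2 than in HEB.

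Among 9 other FERM-domain genes, FRMD3 moved the same way in E2-2, with 89 reads in E2-2, 19 in E2A, 27 in HEB and 4 in vector. FRMD3 was higher in E2-2 than in vector by 22.9-fold (8.63 to 85.8), and higher than in E2A by 5.46-fold (3.30 to 9.49). Unlike FRMD7, it was also called in HEB over vector, at 6.36-fold (2.22 to 25). FARP1 was 3.27-fold (2.12 to 5.19) higher in E2-2 than in vector, and FRMD4A was 2.42-fold (1.48 to 4.08) higher in E2-2 than in E2A. Of the 6 family genes tested in E2-2 over vector, 2 were called higher (33.3%, beside 8.45% of all genes) and 0 lower (beside 3.55%). The median log2 fold was 0.63, beside -0.03 for all genes tested. In HEB over vector 1 of 6 was called higher (16.7%, beside 2.55% of all genes), and in E2-2 over E2A 2 of 6 (33.3%, beside 3.63%).

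Genes with near-identical copies were compared with those copies. SSX1 (ENSG00000126752, chromosome X, 48255317 to 48267444) is a cancer-testis gene for a nuclear repressor, normally restricted to testis and fused to SS18 in synovial sarcoma. It had 21 reads in E2-2, 173 in E2A, 2 in HEB and 1 in vector. E2A was highest, at 9.79 CPM (8.39 to 11.4), E2-2 lay between at 1.38 CPM (0.857 to 2.12), and HEB and vector overlapped at the floor. E2A exceeded vector by 153-fold (27.1 to 6067) and HEB by 81.0-fold (22.1 to 674). It was lower in E2-2 than in E2A, by 7.07-fold (4.48 to 11.7). E2-2 over vector, at 21 against 1 reads (21.6-fold, 3.47 to 893), held too few reads for a call, as did E2-2 over HEB, at 21 against 2.

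Reads of SSX1 can also match its relatives, and how the authors counted such reads is not given in the sources used here. The 10 other SSX genes listed held 7 reads in E2-2, 14 in E2A, 2 in HEB and 1 in vector. With SSX1 and these genes summed, E2A over vector was 82.5-fold (22.5 to 687) and E2-2 was 5.73-fold (3.84 to 8.86) lower than E2A. The summed reads also passed the minimum for E2-2 over vector, at 14.4-fold (3.63 to 125), and for E2-2 over HEB, at 7.64-fold (2.67 to 30), and both were then called higher. The pseudogene SSXP9, 54.9 kb from SSX1, followed it at low counts, with 3 reads in E2-2, 15 in E2A, 0 in HEB and 1 in vector. SSXP9 was added by hand, outside the rules that picked the named genes, and has too few reads for a call. SSX5 overlaps SSX1 in the table and had at most 2 reads in a library.

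No other cancer-testis gene was called beside SSX1, but most could not be. Only 2 had enough reads in E2-2 over vector, and 1 in each other comparison. Of 22 listed, 21 are in the table, and they summed to 6.53 CPM in E2-2, 6.90 in E2A, 6.41 in HEB and 5.19 in vector. Most of this was PRAME, with 77 reads in E2-2, 101 in E2A, 93 in HEB and 62 in vector, not called in any comparison. Testis germ cell markers, 10 in number, summed to 6.33 CPM in E2-2, 6.06 in E2A, 6.41 in HEB and 5.19 in vector. Only 1 of them had enough reads in HEB over vector and 2 in each other comparison, and none of those was called.

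GOLGA6A (ENSG00000159289, chromosome 15, 74069857 to 74082550) belongs to a primate family of golgin genes, coiled-coil proteins named after the Golgi apparatus, with many near-identical copies on chromosome 15. It had 186 reads in E2-2, 20 in E2A, 2 in HEB and 1 in vector. The order was the mirror of SSX1: E2-2 at 12.3 CPM (10.6 to 14.2), E2A between at 1.13 CPM (0.691 to 1.75), and HEB and vector together at the floor. GOLGA6A was 191-fold (33.9 to 7596) higher in E2-2 than in vector, 10.8-fold (6.82 to 18.2) higher in E2-2 than in E2A and 101-fold (27.7 to 844) higher in E2-2 than in HEB. E2A over vector, at 20 against 1 reads (17.7-fold, 2.82 to 732), held too few reads for a call.

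Its closest copies were also highest in E2-2. GOLGA6B had 24 reads in E2-2, 1 in E2A, 0 in HEB and 0 in vector. GOLGA6C had 23 in E2-2, 3 in E2A, 0 in HEB and 1 in vector, and GOLGA6D had 47 in E2-2, 3 in E2A, 0 in HEB and 0 in vector. E2-2 exceeded vector for GOLGA6D by at least 16.1-fold, and E2A by 18.3-fold (5.88 to 91.7). Summed over GOLGA6A to GOLGA6D, E2-2 was 144-fold (39.5 to 1195) higher than vector and 12.1-fold (8.13 to 18.7) higher than E2A, at 280 reads in E2-2, 27 in E2A, 2 in HEB and 2 in vector. Which of the copies gave these reads cannot be told apart here.

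Most of the more distant golgin copies were not called. Of the 17 other GOLGA6 and GOLGA8 genes tested in E2-2 over vector, GOLGA6D and GOLGA8J were called higher (11.8%, beside 8.45% of all genes). GOLGA8Q and GOLGA8O were called lower (11.8%, beside 3.55%). The 17 include GOLGA6D, one of the closest copies above, so GOLGA8J was the only more distant copy called higher there. GOLGA8J was 3.09-fold (1.61 to 6.30) higher, GOLGA8Q 2.86-fold (2.19 to 3.79) lower and GOLGA8O 2.08-fold (1.69 to 2.56) lower. In E2A over vector, GOLGA8K and GOLGA8T were called higher of 16 tested (12.5%, beside 4.89% of all genes), and in HEB over vector none of 16. None of 8 other golgins and Golgi proteins was called in any of the 6 comparisons, and their median log2 fold in E2-2 over vector was -0.05.

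**Figure D3:**
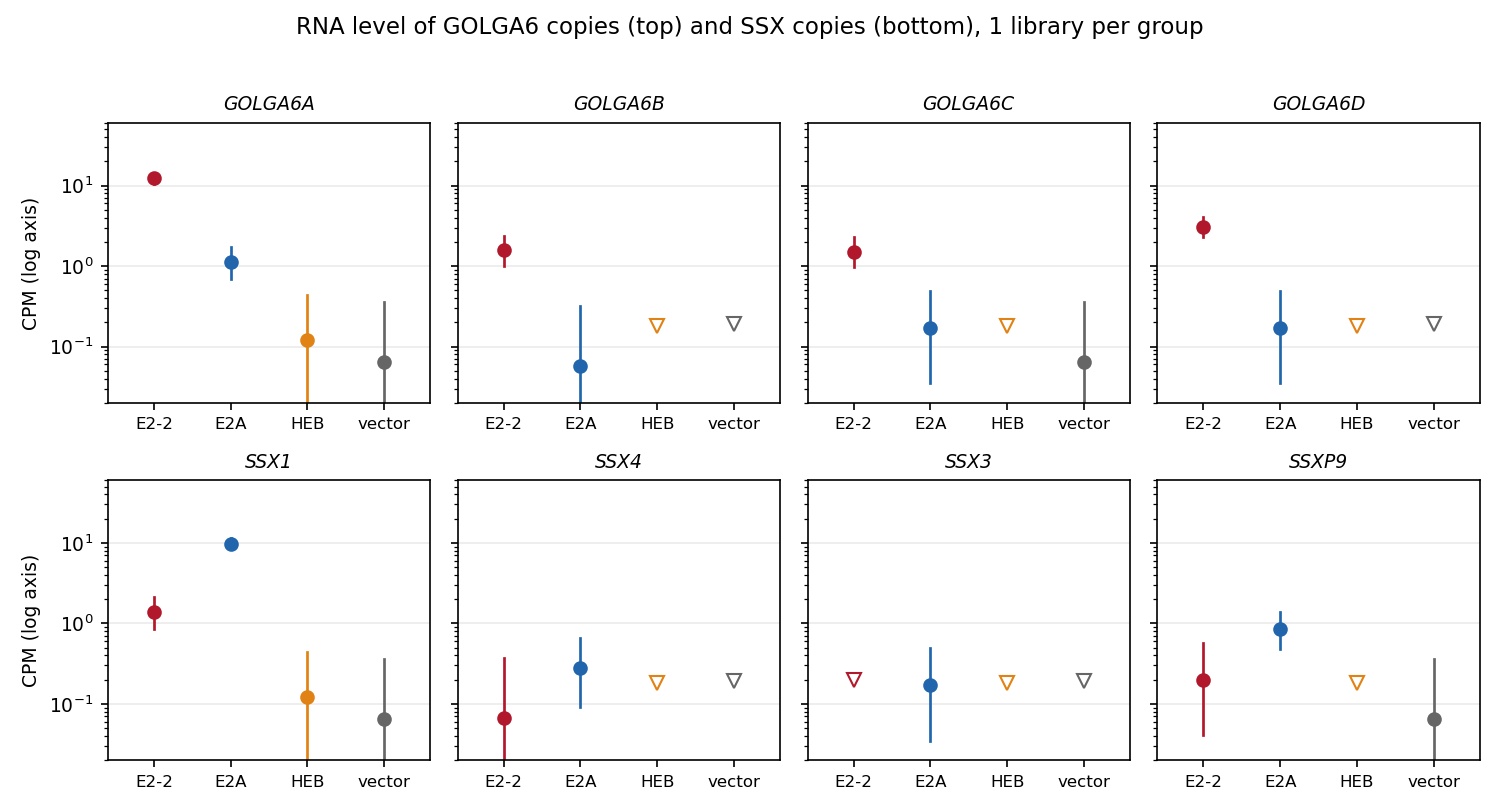
Points show the level, as CPM on a log axis, of GOLGA6A, GOLGA6B, GOLGA6C and GOLGA6D (top) and of SSX1, SSX4, SSX3 and the pseudogene SSXP9 (bottom) in each library, with 95% exact Poisson intervals and open triangles for a count of 0 drawn at 3 reads. All 4 GOLGA6 genes peak in E2-2, at 1.52 to 12.3 CPM, and SSX1 at 9.79 CPM stands above its relatives in E2A.

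C1orf127 and SH3TC1 have less studied products. C1orf127 (ENSG00000175262, chromosome 1, 10946471 to 10982037), now called CIROZ, is annotated in the deposited table with heart development and left/right symmetry. It had 226 reads in E2-2, 7 in E2A, 26 in HEB and 4 in vector. E2-2 was highest at 14.9 CPM (13.0 to 17.0), HEB lay between at 1.57 CPM (1.03 to 2.30), and the intervals of E2A and vector overlapped. It was 58.1-fold (22.4 to 215) higher in E2-2 and 6.13-fold (2.13 to 24.2) higher in HEB than in vector, while E2A and vector did not differ beyond counting error (1.54-fold, 0.393 to 7.20). It was 37.6-fold (18 to 94.6) higher in E2-2 than in E2A, 9.48-fold (6.31 to 14.8) higher in E2-2 than in HEB and 3.97-fold (1.68 to 10.8) lower in E2A than in HEB. With a minimum of 100 reads, HEB over vector and E2A over HEB, at 30 and 33 reads, are no longer called.

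SH3TC1 (ENSG00000125089, chromosome 4, 8182072 to 8241803) codes for a protein with SH3 domains and tetratricopeptide repeats, and its relative SH3TC2 is mutated in a form of Charcot-Marie-Tooth neuropathy. It had 479 reads in E2-2, 406 in E2A, 37 in HEB and 72 in vector. The levels were 31.6 CPM (28.8 to 34.5) in E2-2, 23.0 (20.8 to 25.3) in E2A, 2.24 (1.57 to 3.08) in HEB and 4.62 (3.61 to 5.81) in vector. No interval overlapped another, and HEB was the lowest. Against vector, SH3TC1 was higher in E2-2 by 6.84-fold (5.33 to 8.89) and in E2A by 4.98-fold (3.87 to 6.49), but lower in HEB by 2.06-fold (1.37 to 3.16), a call lost with a fold of at least 4. Against HEB, it was higher in E2-2 by 14.1-fold (10.1 to 20.3) and in E2A by 10.3-fold (7.33 to 14.8). SH3TC2 went the other way in E2-2, 2.80-fold (2.24 to 3.54) lower than in vector, with 104 reads in E2-2, 237 in E2A, 195 in HEB and 300 in vector.

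How far a gene's highest library stood above the next was measured for all 15684 genes with at least 30 reads over the 4 libraries. E2-2 was the highest by at least 2-fold for 413 genes (2.63%), E2A for 55 (0.351%), HEB for 7 (0.0446%) and vector for 52 (0.332%). LRRC15, SORCS2 and TTLL10 ranked 1, 2 and 3 of the 55 genes highest in E2A, at 13.5-fold, 12.5-fold and 11.2-fold over HEB, and SSX1 ranked 6 at 7.07-fold over E2-2. Between them stood TTLL10-AS1, named after its value was seen, and a clone-named gene. The intervals of LRRC15, SORCS2 and TTLL10 overlap, so their order is not fixed. Of the 413 genes highest in E2-2, GOLGA6A ranked 15 and C1orf127 18. FRMD7 stood above them by its 22.4-fold (5.81 to 191), but this is taken over 2 reads in HEB, and over E2A, with 0 reads, the fold is a bound of at least 15.9, so no rank is given for it. SH3TC1 met no such rule, since E2-2 and E2A were both high. The 8 genes were chosen for large differences between E protein libraries, so high ranks follow from the choice and are a description.

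**Figure D4:**
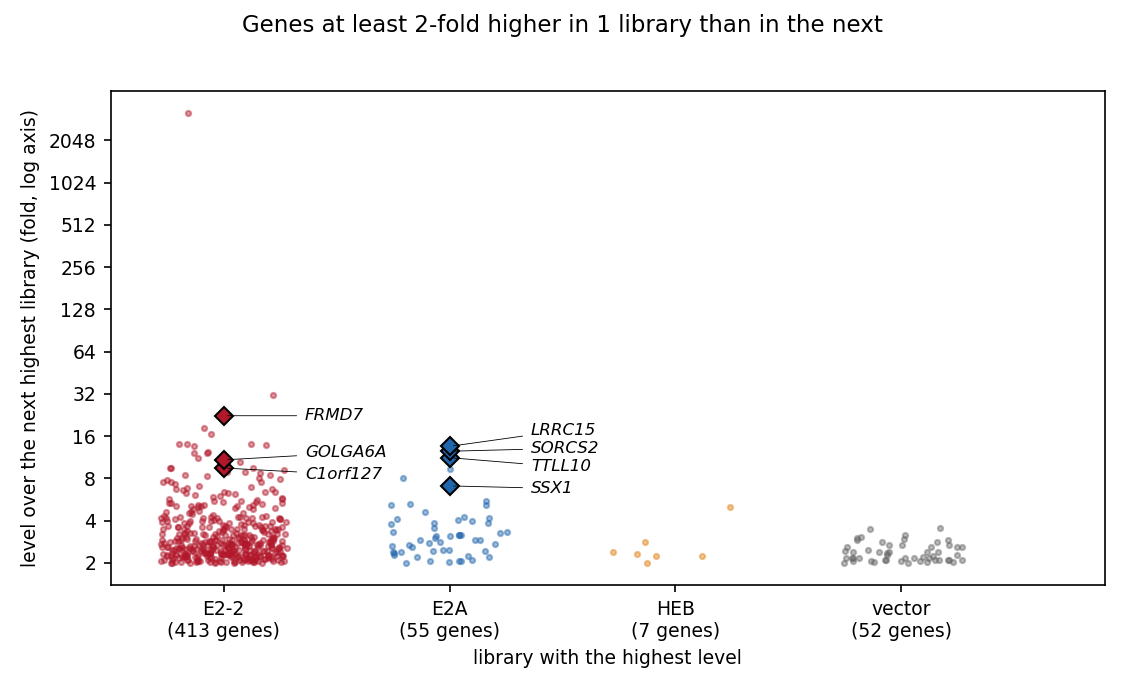
Fold of the highest library over the next highest on a log axis, for genes at least 2-fold higher in 1 library, grouped by that library. Diamonds mark the named genes: FRMD7, GOLGA6A and C1orf127 in E2-2, and LRRC15, SORCS2, TTLL10 and SSX1 near the top of the 55 genes in E2A. The named genes were chosen for large differences between E protein libraries. The topmost point in E2-2 is the transduced gene TCF4.

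The vector library held little RNA of these genes. It had at most 4 reads for 7 of the 8, all but SH3TC1, and at most 4 reads for 399 of the 15684 genes (2.54%). A gene with few reads in most libraries can show a large fold more easily, so this is a description.

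Position was compared next. SORCS2 and SH3TC1 lie on the same stretch of chromosome 4, 439 kb apart, yet E2-2 was at the floor for SORCS2 and highest for SH3TC1. In E2A both were called higher than in vector (SORCS2 35.3-fold, SH3TC1 4.98-fold) and than in HEB (12.5-fold and 10.3-fold). TTLL10 lies 5.57 kb from TNFRSF18, which codes for the receptor GITR of the TNF receptor family. TNFRSF18 had 17 reads in E2-2, 172 in E2A, 29 in HEB and 0 in vector. Like TTLL10 it peaked in E2A, at least 50.6-fold higher than in vector and 5.55-fold (3.73 to 8.54) higher than in HEB, and it was lower in E2-2 than in E2A, by 8.68-fold (5.27 to 15.3).

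TTLL10-AS1, an antisense gene that overlaps TTLL10, had 0 reads in E2-2, 30 in E2A, 3 in HEB and 2 in vector. Whether counting used the strand is not given in the sources used here, so reads of TTLL10 and TTLL10-AS1 cannot be told apart with certainty. ATAD3C, 252 kb away and named after its values were seen, was 5.14-fold (3.86 to 6.95) higher in E2A than in vector, with 84 reads in E2-2, 326 in E2A, 75 in HEB and 56 in vector. It codes for a mitochondrial ATPase-like protein with close copies that can share reads.

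Most other genes near the 8 were not called. Within 500 kb on either side lay 272 other genes, of which 106 to 109 had enough reads in a comparison. In E2-2 over vector, 7 of 107 neighbours were called higher (6.54%, beside 8.45% of all genes) and 10 lower (9.35%, beside 3.55%). In E2A over vector, 7 of 108 were called higher (6.48%, beside 4.89%) and 4 lower (3.70%, beside 1.58%). In HEB over vector, 2 of 106 were called higher (1.89%, beside 2.55%) and 5 lower (4.72%, beside 1.23%). Some lower ones are overlapping clone-named genes in the TTLL10 window, so the neighbours are not independent.

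Beside LRRC15, HES1 and FAM43A peaked in E2-2, while LRRC15 peaked in E2A. HES1, a repressor gene known as a Notch target, was higher in E2-2 than in vector by 5.58-fold (3.40 to 9.64), and higher than in E2A by 2.55-fold (1.79 to 3.69). HES1 was also called higher in E2A than in vector, at 47 against 19 reads (log2 fold 1.13). FAM43A was higher in E2-2 than in vector by 4.65-fold (4.14 to 5.24), and higher than in E2A by 2.45-fold (2.24 to 2.67). Beside SORCS2, the calcium-binding protein gene S100P peaked in E2A, with 52 reads in E2-2, 226 in E2A, 45 in HEB and 73 in vector, and was 2.73-fold (2.09 to 3.61) higher in E2A than in vector. AFAP1, an actin filament gene between SORCS2 and SH3TC1, was lower in E2-2 than in vector by 2.02-fold (1.66 to 2.48).

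Beside SSX1, the amino acid transporter gene SLC38A5 was 2.65-fold (2.50 to 2.80) higher in E2A and PORCN, needed for WNT secretion, 2.55-fold (1.90 to 3.46) lower in E2-2, each against vector. Beside GOLGA6A, LOXL1-AS1 was lower than in vector in E2-2 (4.25-fold, 2.56 to 7.41), E2A (2.09-fold, 1.44 to 3.07) and HEB (3.14-fold, 2.03 to 5.01). SEMA7A was 2.22-fold (1.54 to 3.23) and CD276 2.13-fold (1.54 to 2.99) higher in E2-2 than in vector. STRA6, outside the genes picked by rule, was called lower than in vector in E2-2 (log2 fold -1.39) and in HEB (log2 fold -1.51). Beside FRMD7, the non-coding RNA gene FIRRE was lower in E2-2 than in vector by 2.15-fold (1.22 to 3.91). None of the 11 neighbours of C1orf127 tested was called in E2-2 over vector.

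**Figure D5:**
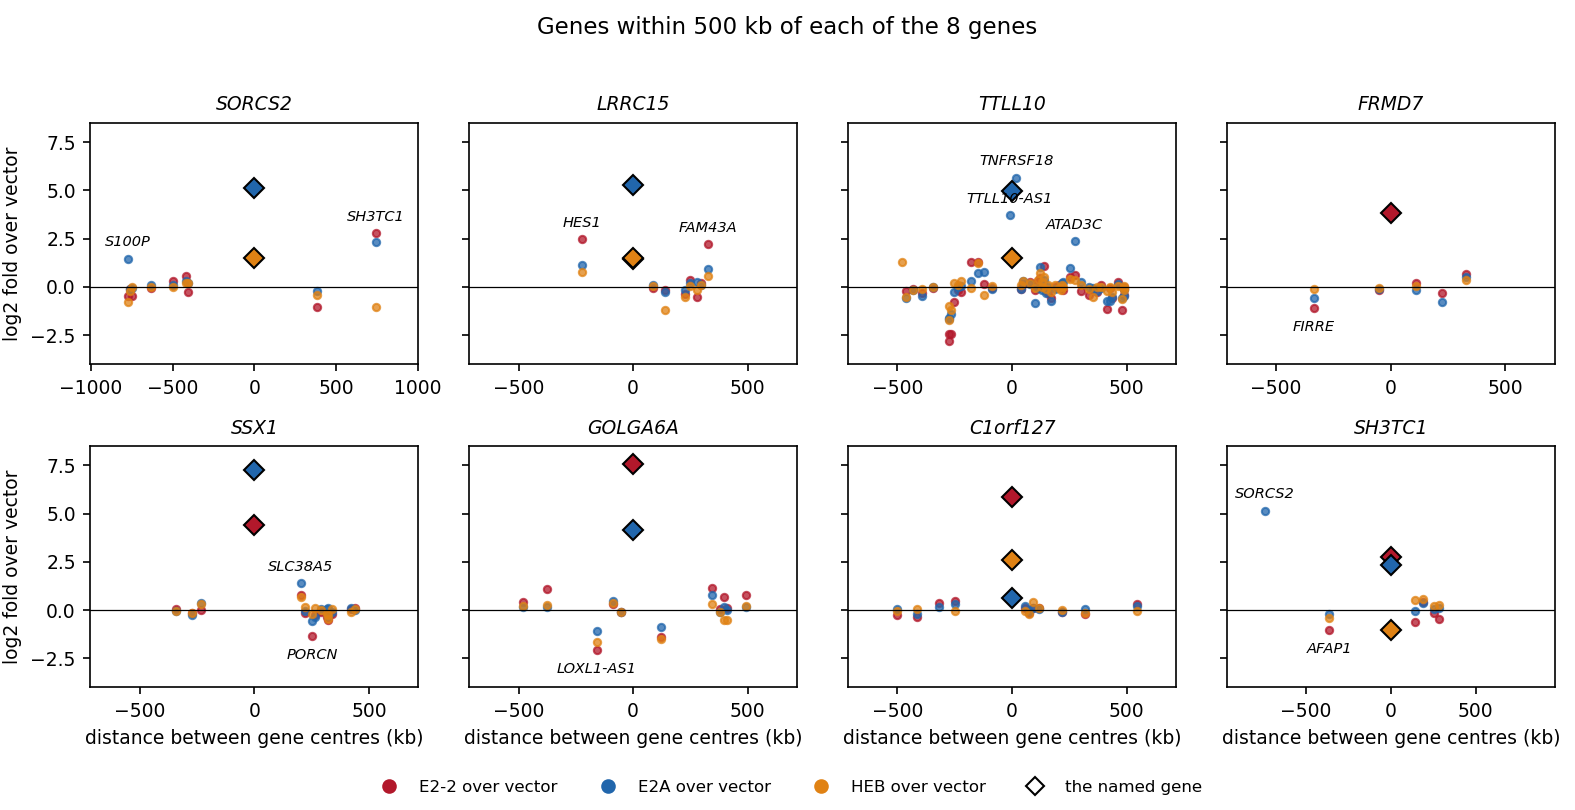
Log2 fold over vector of the genes within 500 kb of each of the 8 genes, by distance between gene centres in kb. Circles are neighbours with at least 30 reads in the pair of libraries, and diamonds the named gene itself, drawn wherever it has a fold. Most neighbours lie near 0, while TNFRSF18 stands beside TTLL10 in E2A at least 50.6-fold above vector.

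Genes with the most similar profile were found by the root mean square difference of log2 CPM, centred on each gene's mean over the 4 libraries, so the likeness rests on 4 values. The closest protein-coding gene to SORCS2 was TTLL10 and the reverse, at a difference of 0.07. This match is made in part by the floor, since SORCS2 had 3 reads in E2-2 and in vector and TTLL10 had 0, set to 3, while both had 9 in HEB. LRRC15 came next for both, at 0.60 and 0.58. CST11, a cystatin family gene, was the nearest gene outside the 8 for all of these, with 6 reads in E2-2, 44 in E2A, 8 in HEB and 0 in vector. For SSX1 the closest were ASS1 (0.95), MX2 (0.96) and LRRC14B (0.99), none of them near. ASS1, the argininosuccinate synthase gene, had 233 reads in E2-2, 1112 in E2A, 113 in HEB and 29 in vector.

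FRMD7 was closest to PRR18 (0.03), ATP2C2 (0.08) and GOLGA6D (0.09). Like FRMD7 they have counts at or under 3 in E2A, HEB and vector, so any gene with a similar count in E2-2 alone would match. C1orf127 was closest to HHIP (0.58), an inhibitor of hedgehog signalling, AQP6 (0.60) and FBN3 (0.64). FBN3, a fibrillin gene, had 312 reads in E2-2, 18 in E2A, 43 in HEB and 0 in vector, with HEB above E2A as for C1orf127. GOLGA6A was closest to LILRB2 (0.52), MAT1A (0.57) and THPO (0.65). SH3TC1 was closest to CD52 (0.22), LILRB5 (0.35) and BTN1A1 (0.35). CD52, a lymphocyte surface antigen gene, had 112 reads in E2-2, 72 in E2A, 10 in HEB and 15 in vector, and exceeded vector by 7.68-fold (4.46 to 14.2) in E2-2 and by 4.24-fold (2.41 to 7.96) in E2A.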

How the data were processed

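RNA was measured in Kasumi-1 cells by RNA-seq, with 1 library each for E2-2, E2A, HEB and the MIGR1 vector. Per the labels' protocols, the RNA libraries came from Illumina's TruSeq kit. TopHat2 (2.0.9) and HTSeq (0.9.1) are among the tools listed in the submitters' processing notes, with hg19 and hg38 as builds and no role for any of them. For the annotation and the strand setting of counting, the labels and headers used here give nothing. The authors deposited whole-number read counts per gene, and their FPKM values, per the file headers, serve as an alternative. The gene length behind FPKM is not given, so levels of different genes are not compared.

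Counts were scaled with edgeR 4.0.16 (TMM, R 4.3.3). Each fold has a 95% Clopper-Pearson interval of the conditional binomial, computed with scipy 1.17.1, for counting error only. For folds, 0 reads in a library were replaced by 3, and the fold is then printed as a bound. Pairs with at most 3 reads in each library have no fold. Levels have exact Poisson intervals. Fold calls and likeness were tested on simulated data. Alternatives were DESeq2 1.42.0 size factors, total counts, FPKM, other read minima, a fold of 4, a floor of 1 read and, added after seeing the data, near-identical copies summed.

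The genes, lists and rules were chosen with earlier results of these data known. Named genes are the 8, the E protein genes, up to 4 called genes of each family list and of each window of 500 kb, and the 3 protein-coding genes with the closest profile. Gene positions are those of the table. Its span for each of the 8 genes was checked against RefSeq GRCh38.p14, the source of the printed sequences. The 6 ChIP-seq libraries and inputs were not analysed here.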

Additional observations from a re-analysis of the deposited data

Results flagged for a closer look

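SH3TC1 moved in opposite directions against vector. It was higher in E2-2 (6.84-fold) and in E2A (4.98-fold), while HEB over vector was 0.484, or 2.06-fold lower. With 1 library per group, this difference between the E proteins was not tested. The HEB call does not pass a fold of at least 4. SH3TC1 was not among the genes with few reads, at 479 in E2-2, 406 in E2A, 37 in HEB and 72 in vector.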

How the results depend on the processing

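Under DESeq2 size factors, total counts and FPKM, all 114 recomputed folds of the 8 genes stayed within their counting intervals, with a largest shift of 3.89%. These alternatives only rescale whole libraries by a little, so wide intervals hold them by construction. FPKM gave nearly the same folds as total counts and is no separate check. No call of the 8 genes changed under DESeq2 size factors or total counts. A floor of 1 read moved the 9 folds that are bounds, by construction. Summing near-identical copies left the 10 folds of GOLGA6A and SSX1 that could be computed within their wide intervals. It moved SSX1 to 82.5-fold against 153-fold in E2A over vector and to 43.8-fold against 81.0-fold in E2A over HEB, and GOLGA6A to 153-fold against 101-fold in E2-2 over HEB. It added calls for SSX1 in E2-2 over vector (14.4-fold against 21.6-fold) and E2-2 over HEB (7.64-fold against 11.5-fold). The number of called genes in the whole table depended on the thresholds, by construction. With at least 100 reads it was 1038 for E2-2 over vector, 478 for E2A over vector, 238 for HEB over vector, 365 for E2-2 over E2A, 606 for E2-2 over HEB and 174 for E2A over HEB, against 1666, 900, 518, 738, 1064 and 429. With a fold of at least 4 it was 567, 273, 130, 160, 239 and 75 in the same order. With no minimum of reads it was 1388 for E2A over vector, 876 for HEB over vector, 1134 for E2-2 over E2A and 803 for E2A over HEB. Of the 28 calls of the 8 genes, a minimum of 100 reads ended 5, namely those of FRMD7 in E2-2 over vector, E2A and HEB, and those of C1orf127 in HEB over vector and E2A over HEB. A fold of at least 4 ended 2, SH3TC1 in HEB over vector and C1orf127 in E2A over HEB. No minimum added 8, which included SSX1 and TTLL10 in E2-2 over HEB and GOLGA6A in E2A over HEB. No paired analysis was possible because each group has 1 library. Differences between cultures are not measured by these data.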

Other observations

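None of the 8 genes was highest in HEB. The 7 genes at least 2-fold higher in HEB than in the next library, named after their values were seen, were the transduced gene TCF12 (4.97-fold), KISS1R (2.81-fold), KITLG (2.41-fold), ICAM5 (2.31-fold), SULT1A3 (2.24-fold), CST7 (2.24-fold) and SOWAHD (2.00-fold). KISS1R codes for the kisspeptin receptor and KITLG for the ligand of the receptor KIT. SULT1A3 has a near-identical copy that can share reads. Mean levels over the 4 libraries were low for SULT1A3 (0.686 CPM), KITLG (0.723), CST7 (1.15) and SOWAHD (1.17). Intervals are not printed for the folds of these 7 genes.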
